A study of Mus musculus with 43 samples.

Results

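Livers of KOAL mice, which lack Irs1 (Irs1-/-) and had food ad libitum, were set directly against livers of WTDR mice, which were wild type and on dietary restriction (DR). All were female mice of 15 months of age. In WTDR mice the restriction began at 10 weeks of age, was held for 12 months at 30% DR, reckoned from the intake of ad libitum (AL) controls, and the daily meal was given between 1630 and 1730 h, while KOAL mice had access to the same chow at all times. The knockout is global and not confined to hepatocytes. Poly(A)-selected RNA was sequenced on an Ion Proton instrument, with 3 libraries for KOAL and 3 for WTDR (6 of the 43 libraries of the series). The livers of WTAL (wild type, AL, 2 libraries) and KODR (Irs1-/-, DR as above, 3 libraries) mice are given beside them. The genotype and the diet both differ between KOAL and WTDR, so a difference between them alone cannot be told apart as a genotype or a diet difference.

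The values are FPKM, which is fragments per kilobase of transcript scaled to the mapped fragments of the library. The deposited table gives 1 FPKM per entry and group, with a 95% confidence interval, and an entry is a gene or a set of overlapping genes. Of 42349 entries, 13966 met the rule used here, a valid status in both groups and an FPKM of at least 1 in KOAL or WTDR. Of these, 13703 had a value above 0 in both groups and were tested, and 263 were listed at 0 in one of them (111 in KOAL and 152 in WTDR). Single-library values were not analysed here, so the depth of the libraries is unknown. The spread between mice is known only through the authors' intervals, some of which are very narrow. These gave an SD with a median of 32.0% of the FPKM in KOAL and 33.0% in WTDR.

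Insulin receptor substrate 1 passes the signal of the insulin and IGF1 receptors on to PI3 kinase and AKT. In the liver this pathway holds back glucose output, through FOXO1, and drives lipogenesis, through SREBP1c. IRS2 is the other main substrate of the insulin receptor in hepatocytes. Mice fed a restricted ration once a day tend to eat it soon after it is given and then fast until the next, and the liver clock can follow such meals. Mice that lack Irs1 and mice on DR are both known to live longer than wild type mice fed AL.

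Irs1 was measured in every group and was not lower in the livers labelled as knockout. Its FPKM was 5.95 in the livers labelled KOAL, 3.29 in WTDR, 4.70 in WTAL and 4.75 in KODR, with a log2 difference between KOAL and WTDR of 0.85 (standard error, SE, 0.50) that did not pass the test. No group was therefore identified by its Irs1 level, and every direction below is that of the labelled groups. Hepatocyte markers were abundant in both groups. The FPKM of Alb (albumin) was 34112 in KOAL and 56555 in WTDR, and 6 of the 12 hepatocyte markers tested were higher in KOAL and 6 lower, none of them called.

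A log2 difference was called where a two-sided Wald test on the FPKM and its SE passed a false discovery rate (FDR) of 10% over all tested entries. In all, 92 entries were higher in KOAL than in WTDR, 0.671% of those tested, and 30 were lower, 0.219%. Single protein-coding genes made up 43 of the higher and 11 of the lower entries, which is 0.432% and 0.111% of the 9946 protein-coding genes tested. Among the 54 called protein-coding genes, 6 had an FPKM under 1 in KOAL or WTDR. These 6 met the FPKM rule through their higher group alone, so the rule fixed their direction. The other 68 called entries were mainly short structural RNAs and pseudogenes. Values leaned to KOAL across the table. The median log2 difference was 0.12, 58.1% of tested entries were higher in KOAL, and some list medians are therefore also given relative to that shift. Counts of higher list members below are to be read beside these 58.1%.

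The test was not sensitive at these intervals. At the median SE of a protein-coding gene, 0.64 on the log2 scale, a 4.39-fold difference was needed for a call. Where the authors' SD was divided by the square root of the number of libraries (called the smaller SE below), 989 entries were higher (7.22%) and 380 lower (2.77%). Counts of called list members below are to be read beside these shares, and beside 0.671% and 0.219% for the SE as given. Where a t distribution with the degrees of freedom of these libraries took the place of the normal distribution, 11 entries were called, and Gm20721 and Hist1h4i were the only protein-coding genes among them. Every other protein-coding call named here was lost under that choice. Gm20721 and Hist1h4i held on very narrow intervals (SE 0.0025 and 0.014). The interval of Gm20721 was 63.47 to 63.50 in KOAL but 0 to 163 in WTAL. Such a narrow interval may not hold the spread between mice. Centring all differences on the median of 0.12 kept 41 of the 54 protein-coding calls, and those of Agtr1a, Bcl9l, Hspa1b, Igfbp1, Lrg1, Myh4 and Siglec1, all described below, were among the calls it lost.

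**Figure D1:**
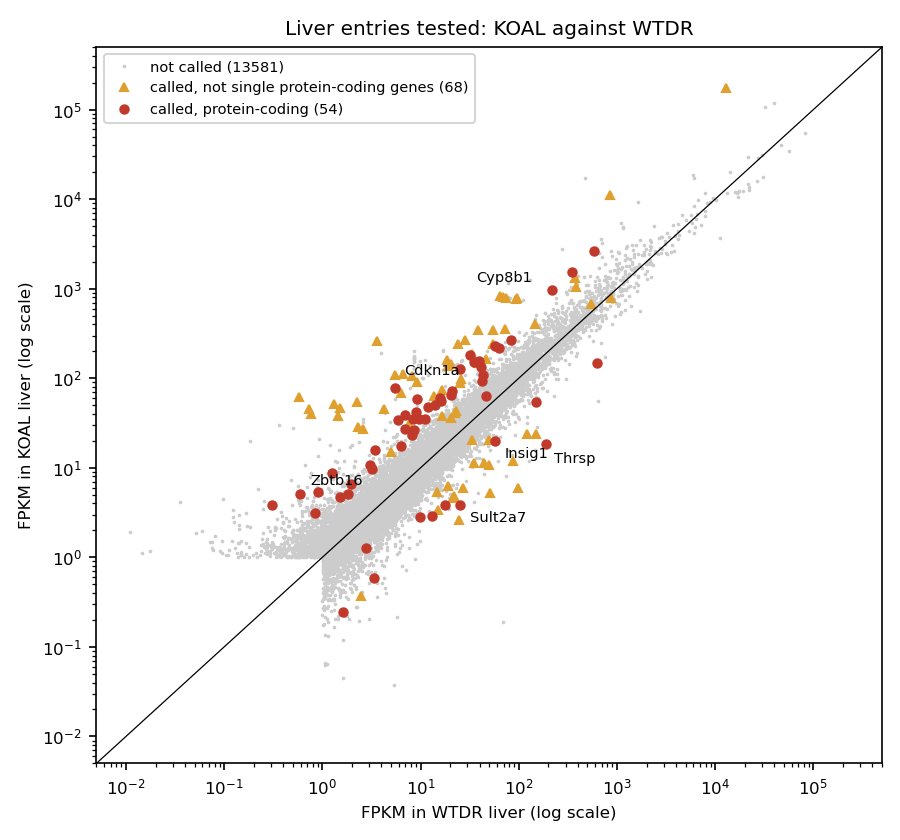
FPKM in KOAL liver (vertical axis) against FPKM in WTDR liver (horizontal axis) for the 13703 tested entries, both on log scales; each point is 1 entry and the line marks equal values. The 54 called protein-coding genes (red) lie mostly above the line, 43 against 11, and the other 68 called entries (yellow) include those farthest from it.

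Growth arrest genes held the largest protein-coding difference among the calls. Cdkn1a, which encodes the cyclin-dependent kinase inhibitor p21 (GRCm38 chr17:29090976-29100727), had an FPKM of 78.3 in KOAL (interval 40.4 to 116) and 5.54 in WTDR (4.14 to 6.93). This is 14.1-fold higher in KOAL, or 3.82 on the log2 scale (SE 0.39). WTAL lay between them at 18.3, and KODR was lowest at 3.02. Gadd45g, which inhibits the cell cycle after stress, rose as well, from 8.45 in WTDR to 35.5 in KOAL. It was called as its log2 difference of 2.07 had an SE of 0.57, and its FPKM was 23.3 in WTAL and 10.9 in KODR. Cdkn1a and Gadd45g were the 2 called genes of the 14 tested p53 targets and growth arrest genes, whose median was 0.24. Gadd45a (2.86 in KOAL and 8.57 in WTDR) and Rps27l (72.3 and 195) pointed the other way and were called lower only with the smaller SE. Of the 9 tested cell cycle genes 3 were higher and 6 lower, with a median of -0.43, and none was called. Ccnd1 (cyclin D1), at 28.6 in KOAL and 63.8 in WTDR, was called lower with the smaller SE.

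Of 15 tested glucocorticoid-responsive genes, 12 were higher in KOAL, 4 were called and 8 were called with the smaller SE, all of them higher. Of all tested entries 58.1% were higher, 0.671% were called higher and 7.22% were called higher with the smaller SE. The list's median was 0.76, which is 0.64 relative to all tested entries. Besides Cdkn1a the called members were Zbtb16, a zinc-finger transcription factor, Mt1, a metal-binding metallothionein, and Lcn2, an iron-siderophore-binding lipocalin. Zbtb16 had an FPKM of 5.15 in KOAL and 0.591 in WTDR, a log2 difference of 3.12 (SE 0.52). It was 5.51 in WTAL and 4.20 in KODR, so that WTDR stood alone at the low end. Mt1 was 1531 in KOAL, 347 in WTDR, 625 in WTAL and 1103 in KODR (log2 difference 2.14, SE 0.52), and its neighbour Mt2 was 685 in KOAL and 242 in WTDR, called with the smaller SE. Serpina6, which encodes the globulin that carries corticosteroids in plasma, fell by 2.07 on the log2 scale (SE 0.59), with 149 in KOAL, 626 in WTDR, 222 in WTAL and 438 in KODR. Fkbp5 (27.9 in KOAL and 17.1 in WTDR), a glucocorticoid receptor target, was called with the smaller SE only, and Tsc22d3 (30.7 and 21.5), another target, was not called by either SE.

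**Figure D2:**
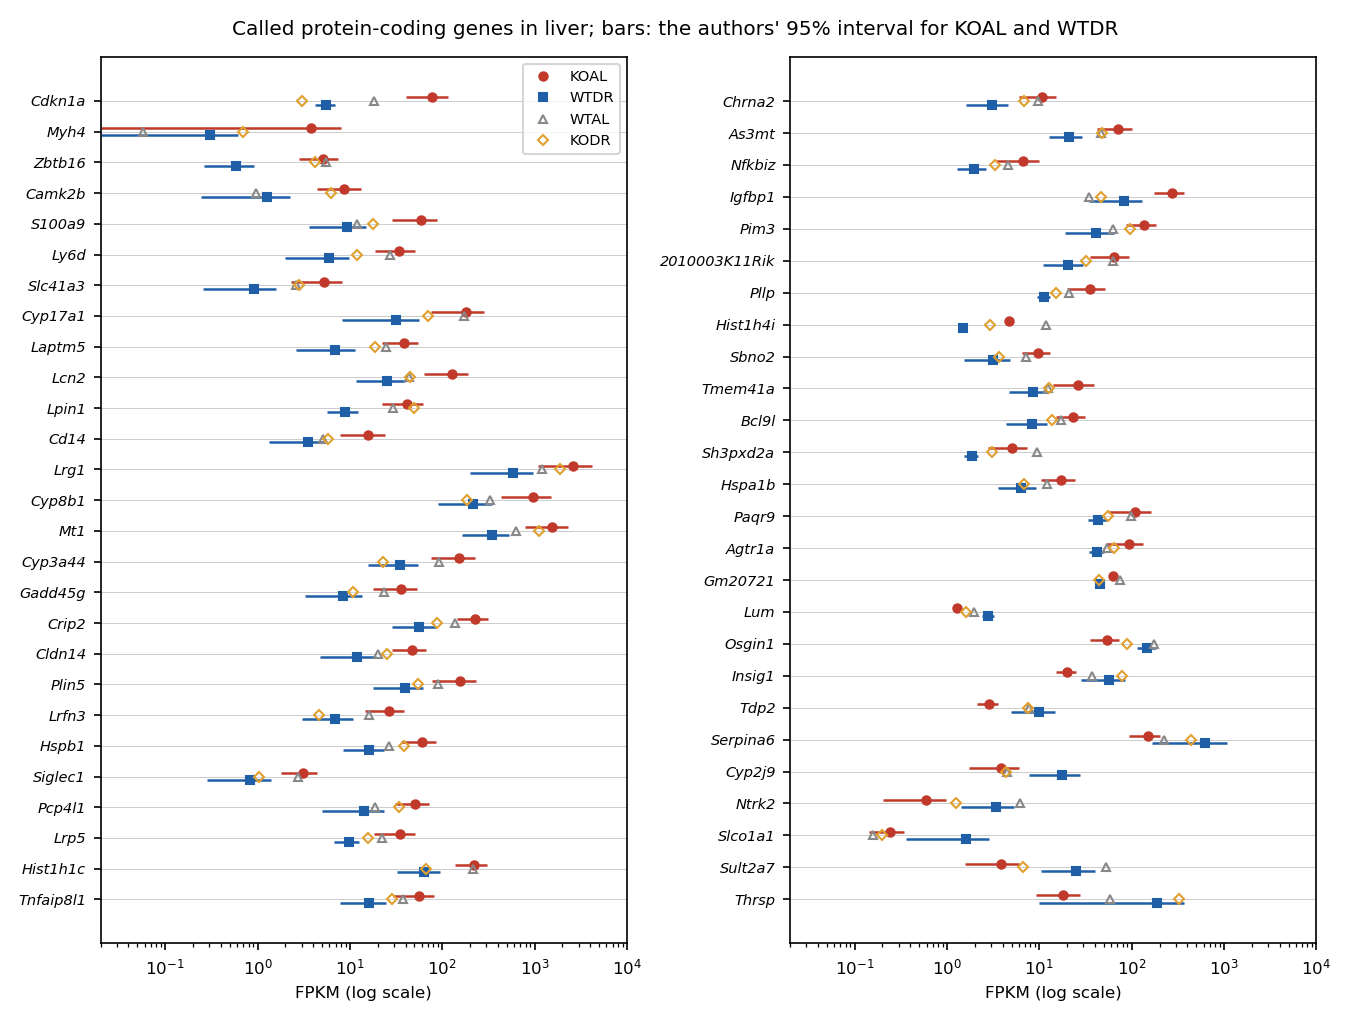
FPKM (log scale) of 53 of the called protein-coding genes in the 4 liver groups, ordered by their log2 difference between KOAL (red circles) and WTDR (blue squares). The lines give the authors' 95% interval for KOAL and WTDR, cut at the left edge where the lower bound is near 0, and overlap for only 3 of the genes (Myh4, Serpina6 and Thrsp); WTAL (triangles) lay between KOAL and WTDR for most of them.

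Sterol synthesis had the lowest median of the pathway lists. Of 23 tested genes, 20 were lower and 3 higher, 1 was called and 12 were called with the smaller SE, all lower. Of all tested entries 58.1% were higher, 0.219% were called lower and 2.77% were called lower with the smaller SE. The median log2 difference was -1.17, or -1.28 relative to all tested entries. The called gene was Insig1 (chr5:28071363-28078662), whose product holds the SREBP precursors in the endoplasmic reticulum and is itself induced by SREBP. Its FPKM was 19.9 in KOAL (15.1 to 24.8) and 56.7 in WTDR (28.2 to 85.3), with 37.5 in WTAL and 79.4 in KODR. The intervals of KOAL and WTDR did not overlap, and the log2 difference was -1.51 (SE 0.40).

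The bases upstream of Insig1 are shown since it is the called gene of the pathway. They run from chr5:28071162-28071362 on the plus strand (RefSeq, GRCm38.p6), up to the base before the annotated gene, 5′ to 3′, with an E-box in capitals:
Insig1: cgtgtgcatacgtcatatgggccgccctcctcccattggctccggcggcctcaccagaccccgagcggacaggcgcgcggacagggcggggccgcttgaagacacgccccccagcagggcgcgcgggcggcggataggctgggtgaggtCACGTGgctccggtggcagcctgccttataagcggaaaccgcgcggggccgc
The E-box, CACGTG, is the same on both strands and is read by the clock factors CLOCK and BMAL1, by MYC-type factors and by SREBP proteins. It was found in 7.15% of all 32851 promoters of the same table (250 bases before to 50 after the start), and in 4 of the 16 sterol synthesis genes with a promoter there, Insig1, Hsd17b7, Sc5d and Dhcr7. The sterol element TCACNCCAC, searched on both strands, was found in 1.24% of all promoters and in that of Hmgcs1 among these 16. The letters are a description and not evidence that a factor binds there.

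Several other sterol genes had lower values in both AL groups than in both DR groups. Fdps (farnesyl diphosphate synthase) had an FPKM of 11.9 in KOAL, 61.1 in WTDR, 10.2 in WTAL and 46.0 in KODR, with a log2 difference of -2.36 (SE 0.76). Nsdhl, a sterol dehydrogenase, was 7.13, 29.1, 10.1 and 28.4 in the same order, and Idi1, an isomerase of the mevalonate pathway, was 6.35, 21.5, 8.07 and 26.9. All 3 were called lower with the smaller SE only. The transcription factor gene Srebf2 itself was 17.3 in KOAL and 12.0 in WTDR, and was not called.

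In fatty acid synthesis the largest difference was that of Thrsp. Thrsp (Spot 14, a regulator of fatty acid synthesis, chr7:97412938-97417730) fell farthest among the called protein-coding genes, from 189 in WTDR to 18.3 in KOAL. The difference was 10.4-fold, -3.37 on the log2 scale (SE 0.77). WTAL was at 57.8 and KODR at 324, and the WTDR interval was wide (9.98 to 369), so that it overlapped that of KOAL. Scd1, the main stearoyl-CoA desaturase, was 172 in KOAL and 749 in WTDR but 239 in WTAL and 175 in KODR, so that WTDR stood apart from all other groups. Of 13 tested genes of fatty acid synthesis 10 were lower, with a median of -0.54. Only Thrsp was called, and Scd1 and Elovl6 (3.60 and 6.27) joined it with the smaller SE. Fasn, fatty acid synthase, was 72.5 and 125 with a log2 difference of -0.79 (SE 1.24).

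**Figure D3:**
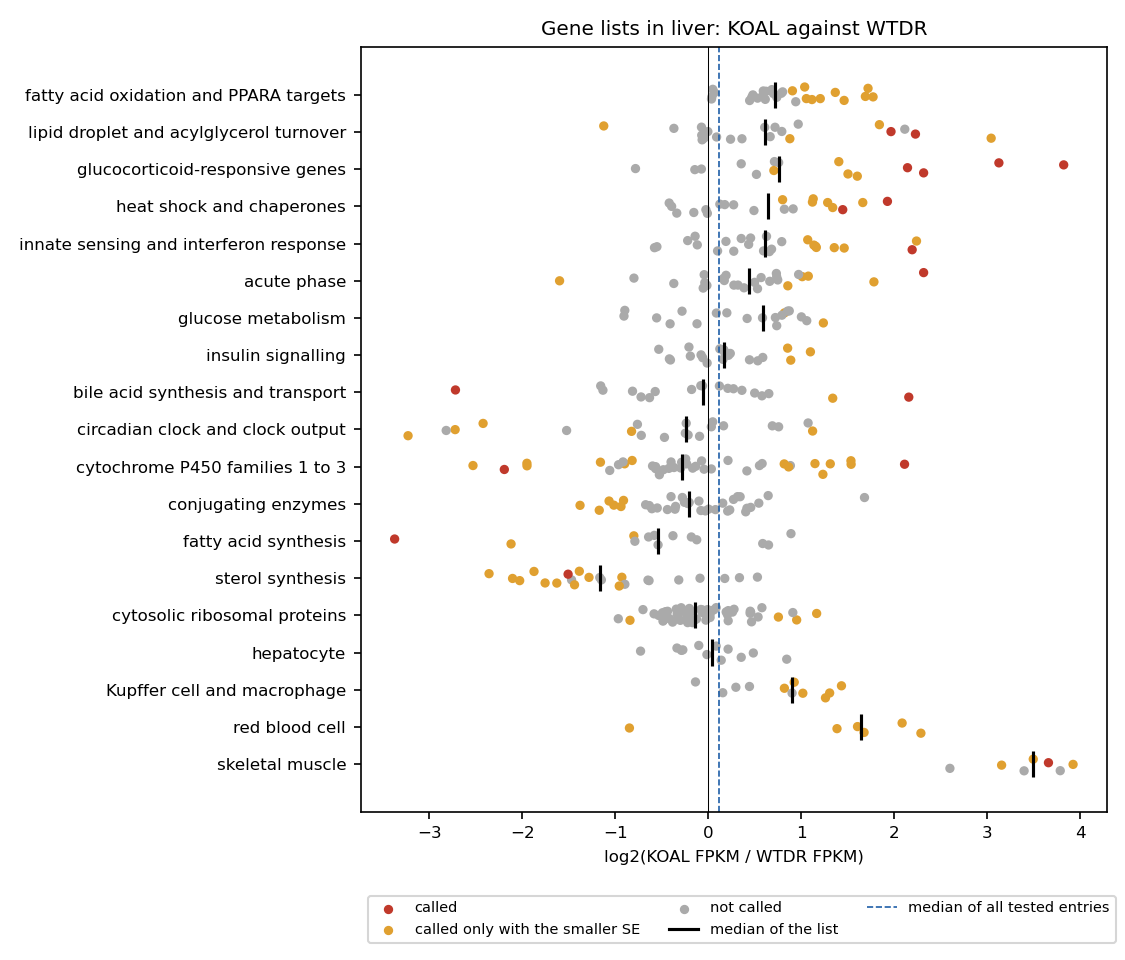
Log2 ratio of KOAL to WTDR FPKM (horizontal axis) for the tested members of 19 gene lists, 1 point per gene. Black bars are list medians and the dashed line is the median of all tested entries, 0.12; sterol synthesis lies to its left (median -1.17), fatty acid oxidation to its right (0.72), and few points are called (red).

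Genes of fatty acid oxidation and other PPARA targets had values above 0. All 28 tested members were higher in KOAL, where 58.1% of all tested entries were, with a median of 0.72 (0.60 relative to all entries). None of them was called, and 10 were called with the smaller SE, where 7.22% of all tested entries were called higher. Acot1, an acyl-CoA thioesterase, had the largest difference with 514 in KOAL and 151 in WTDR (log2 1.77, SE 0.58). WTAL was at 309 and KODR at 249. The omega-hydroxylase genes Cyp4a10 (2267 and 703) and Cyp4a32 (169 and 51.4) and the fasting hormone gene Fgf21 (96.1 and 34.9) were also among the 10. Values were close in the carnitine carrier gene Slc25a20 (133 and 130), and the gatekeeper Cpt1a was 201 in KOAL and 147 in WTDR (log2 0.44, SE 0.58).

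On the lipid droplet list Plin5 and Lpin1 rose. Plin5, which coats droplets and ties them to mitochondria, had an FPKM of 154 in KOAL (76.9 to 232), 39.6 in WTDR (17.8 to 61.3), 89.9 in WTAL and 54.5 in KODR, a log2 difference of 1.96 (SE 0.54). Lpin1, a phosphatidate phosphatase of triglyceride synthesis and a coactivator of PPARA, rose 4.68-fold (log2 2.23, SE 0.43), with 41.9 in KOAL, 8.94 in WTDR, 29.6 in WTAL and 48.9 in KODR. WTDR was thus the low group for Lpin1, while for Plin5 both DR groups were low. They were the 2 called genes of the 21 tested in this list, whose median was 0.61, and 5 were called higher and 1 lower with the smaller SE. Cidec, a droplet fusion protein, was 19.5 in KOAL and 2.37 in WTDR, and the lipase inhibitor G0s2 was 1216 and 340. The gene called lower with the smaller SE was Lpl (3.91 and 8.52), which releases fatty acids from lipoproteins. Of 17 apolipoprotein and lipoprotein genes none was called, and their median of 0.17 was close to that of all entries.

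Clock genes had wide intervals. Dbp, Per3, Ciart and Nr1d2 were called lower with the smaller SE and Nfil3, which opposes DBP on shared sites, was called higher. None of the 20 tested clock genes was called with the SE as given, and the list's median was -0.24. Dbp had an FPKM of 15.7 in KOAL, 147 in WTDR, 74.7 in WTAL and 263 in KODR (log2 difference -3.23, SE 1.71). The repressor Per3 was 1.40, 9.24, 7.02 and 17.9 in that order, and the repressor gene Ciart, whose product acts on CLOCK and BMAL1, was 1.08, 5.79, 2.00 and 23.9. Nfil3 ran the other way, with 56.9 in KOAL, 26.2 in WTDR, 31.7 in WTAL and 10.7 in KODR. In these 4 genes KOAL was at one end and KODR at the other. Arntl, which encodes BMAL1, was 2.94 in KOAL, 1.82 in WTDR, 2.00 in WTAL and 0.251 in KODR. The clock hour at which the livers were taken is not given in the sources used here. It and the hours since the last meal cannot be told apart from the groups.

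The bases upstream of Ciart (chr3:95882252-95882478) and Per3 (chr4:151044666-151044915), both on the minus strand, are shown since each held more than 1 copy of a clock motif. They are written 5′ to 3′ up to the annotated gene (RefSeq, GRCm38.p6), with E-boxes (CACGTG, in Ciart) and D-boxes (TTATGNAA, in Per3) in capitals:
Ciart: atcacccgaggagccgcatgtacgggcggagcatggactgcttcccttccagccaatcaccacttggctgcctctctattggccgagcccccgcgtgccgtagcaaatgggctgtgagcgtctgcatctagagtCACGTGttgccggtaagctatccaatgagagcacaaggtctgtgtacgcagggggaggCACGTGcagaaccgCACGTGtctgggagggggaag
Per3: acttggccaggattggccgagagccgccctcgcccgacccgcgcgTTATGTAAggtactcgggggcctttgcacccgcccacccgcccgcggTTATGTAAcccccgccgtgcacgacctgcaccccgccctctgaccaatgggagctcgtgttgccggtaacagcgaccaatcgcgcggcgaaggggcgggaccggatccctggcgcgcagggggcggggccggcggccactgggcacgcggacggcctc
The D-box is read by DBP, TEF and HLF and by NFIL3. It was searched on both strands and found in 3.38% of all promoters, and in those of Per1 and Per3 among the 16 clock genes with a promoter. The E-box was found in 4 of these 16, in Per1, Cry1, Tef and Ciart. These genes were chosen after their values were seen, and none of them was called.

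**Figure D4:**
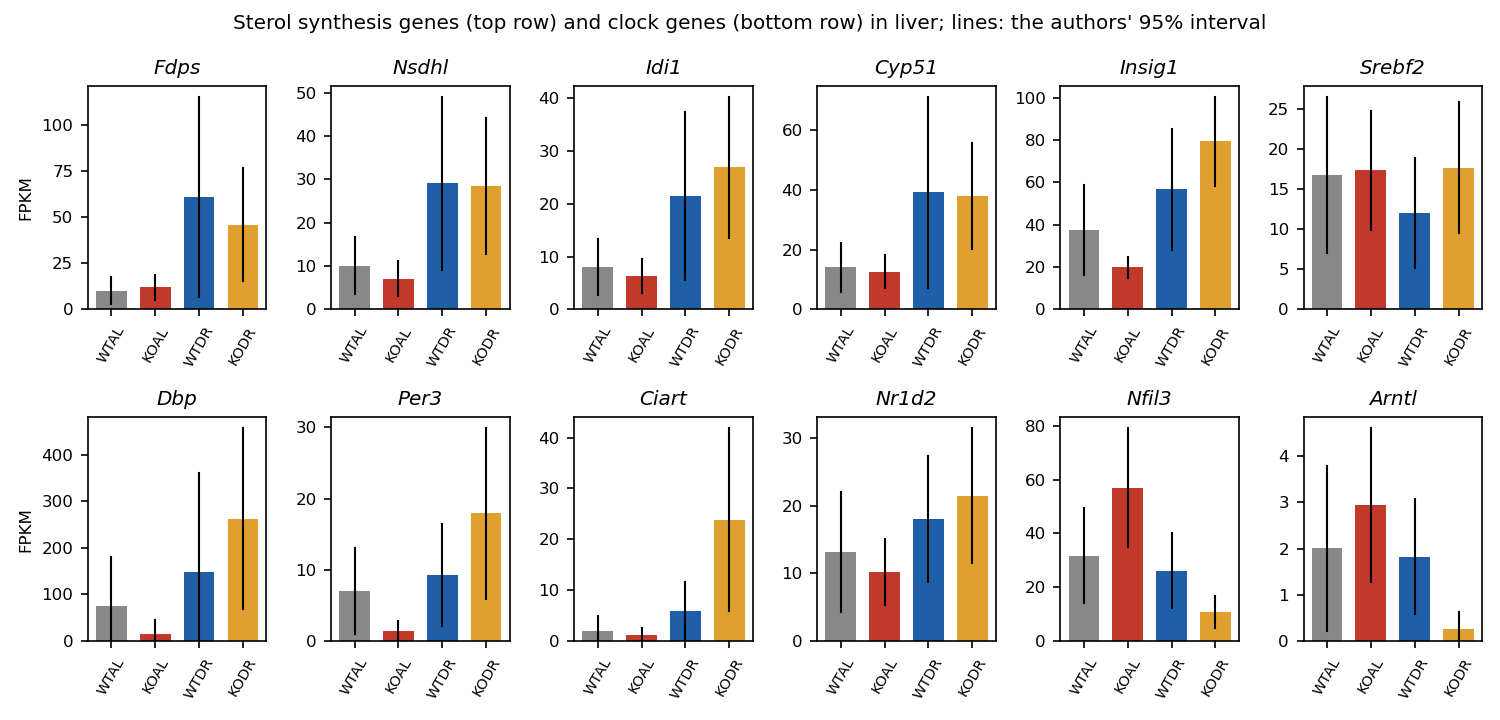
FPKM (vertical axes, from 0) of 6 sterol genes, Srebf2 included (top), and 6 clock genes (bottom) in liver by group, with the authors' 95% interval as a line. For Fdps, Nsdhl, Idi1 and Cyp51 both DR bars exceed both AL bars, and Dbp, Per3 and Ciart are lowest in KOAL and highest in KODR.

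Hspb1 and Hspa1b rose in KOAL. Hspb1, a small heat shock protein, had an FPKM of 60.6 in KOAL and 15.9 in WTDR (log2 1.93, SE 0.45), and Hspa1b, an inducible HSP70, had 17.3 and 6.35 (1.44, SE 0.43). For each WTDR was the lowest group, as WTAL was at 26.2 and 12.0 and KODR at 38.1 and 6.77. These were the called genes among 20 tested chaperone genes, with a median of 0.64. With the smaller SE 8 were called, all higher, where 7.22% of all tested entries were called higher. Among the 8 were Bag3 (44.0 and 18.1) and Hsph1 (16.1 and 7.41). Hsf1, the heat shock transcription factor gene, was 7.78 in KOAL and 8.68 in WTDR. Of 15 genes of the integrated stress response none was called (median 0.13), with Atf5 at 1354 in KOAL and 464 in WTDR, called with the smaller SE, and Asns at 0.383 and 1.15.

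Genes of innate immunity were mostly higher in KOAL. Of 24 tested genes of innate sensing and the interferon response 19 were higher, with a median of 0.61. Cd14, the lipopolysaccharide co-receptor, was called (15.9 in KOAL, 3.48 in WTDR, 5.15 in WTAL and 5.82 in KODR, log2 difference 2.19, SE 0.58). With the smaller SE 8 were called, all higher, where 7.22% of all tested entries were called higher. Among the 8 were the interferon-induced genes Rsad2 (5.23 and 1.90), Ifit1 (9.88 and 4.71) and Isg15 (37.1 and 16.9). WTAL was above KOAL in each of these 3 genes, at 6.61, 12.0 and 49.0. S100a9, a calprotectin subunit of neutrophils, rose from 9.27 in WTDR to 58.8 in KOAL (log2 2.66, SE 0.57). Laptm5, a lysosomal protein of leukocytes, rose from 6.91 to 38.4, and Siglec1, a macrophage lectin, from 0.836 to 3.12. Nfkbiz, an inducible NF-kB cofactor, and Lrg1, a plasma glycoprotein of the acute phase, rose as well, the latter from 582 to 2624.

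Of 26 tested acute phase genes 19 were higher, Lcn2 was called (126 in KOAL, 25.4 in WTDR, 44.2 in WTAL and 45.1 in KODR, log2 difference 2.31, SE 0.53), and the median was 0.44. The cytokine signalling inhibitor Socs3 was 18.2 in KOAL and 5.31 in WTDR, called with the smaller SE. Of the 7 lower genes Hamp, which encodes the iron hormone hepcidin, was the 1 called with the smaller SE, at 3658 in KOAL and 11090 in WTDR. Fga, Fgb and Fgg, which encode the fibrinogen chains, were between -0.05 and 0.38 on the log2 scale and none was called.

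Markers of neutrophils, Kupffer cells and T cells had higher sums in KOAL beside these genes. The FPKM of the 10 neutrophil markers summed to 85.2 in KOAL, 14.8 in WTDR, 20.4 in WTAL and 34.2 in KODR. S100a9 alone gave 58.8, 9.27, 11.8 and 17.9 of these sums, so that they largely repeat its values. All 3 that could be tested were higher in KOAL, of which S100a9 was called. Mpo and Camp, which are made by immature neutrophils, were at 1.81 and 1.89 in KOAL and listed at 0 in WTDR, but they were also at or near 0 in WTAL (0.0220 and 0) and KODR (0 and 0.105). Csf3r, the G-CSF receptor, ran the other way, at 0.601 in KOAL and 0.732 in WTDR. The 12 Kupffer cell and macrophage markers summed to 661 in KOAL, 335 in WTDR, 593 in WTAL and 363 in KODR, none of them listed at 0 in any group. Of 11 tested, 10 were higher in KOAL, among them C1qb (148 and 55.0) and Cd5l (92.9 and 45.9), and none was called. All 5 tested T and NK cell markers were higher in KOAL, where the 12 on the list summed to 30.9 against 15.5 in WTDR, and none was called. The other 7 were below an FPKM of 1 in both groups, and among them only Ncr1 (0.109 and 0.156) was lower in KOAL. A marker near this floor is tested only where it reaches 1 in a group, which favours the group where it is high. The counts of tested T, NK and neutrophil markers therefore say little about direction. In bulk liver, fewer cells of a type and less RNA per cell cannot be told apart, and the part of these cells in the immune gene differences was not tested. Of 10 tested B and plasma cell markers 7 were higher (median 0.14), and all 5 tested MHC class II genes were higher (median 0.50), none of them called.

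Red blood cell and muscle markers also had higher sums in KOAL. The 8 red blood cell markers summed to 13575 in KOAL, 3478 in WTDR, 2690 in WTAL and 12060 in KODR. Hemoglobin genes led this sum, with Hba-a1 at 4865 in KOAL and 1148 in WTDR. None of the 6 tested was called, but 5 were called higher and 1 lower with the smaller SE. Skeletal muscle genes were present at low levels, and all 7 tested were higher in KOAL. Some, such as Myh4 and Actn3 (2.42 and 0.400), met the FPKM rule through KOAL alone, which fixed their direction. The skeletal muscle list summed to 48.1 in KOAL, 4.47 in WTDR, 1.69 in WTAL and 11.5 in KODR, with 4 of its 8 genes listed at 0 in WTAL. Myh4, a fast muscle myosin with 3.83 in KOAL and 0.304 in WTDR (log2 difference 3.66, SE 1.08), was called, although both its intervals reached 0. Leaving out the red blood cell, neutrophil and muscle markers left 120 calls (90 higher and 30 lower), since S100a9 and Myh4 were the only called genes among them. The part of blood or muscle RNA in the other calls was not tested. No marker on the lists of the other cell types was called. Outside these lists the macrophage lectin Siglec1 was called higher and Lum, a proteoglycan of fibroblasts, lower. Of 9 tested immunoglobulin constant chain entries 1 was called, higher in KOAL. Of 10 endothelial markers 9 were higher (median 0.45), of 9 stellate cell and fibroblast markers 6 (0.15), of 3 cholangiocyte markers 2 (0.03), and of 3 neuronal and glial markers 2 (1.11, with Th listed at 0 in both groups). Of the adipocyte markers only Fabp4 (4.63 in KOAL and 2.63 in WTDR) was tested, and of the pancreatic acinar markers only Cela1 (7.83 and 11.0). The other adipocyte and acinar markers with their own entry were below an FPKM of 1 in both groups, with 6 acinar markers and Retn listed at 0 in WTDR.

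Among cytochrome P450 genes of families 1 to 3, 1 rose and 1 fell. Of 41 tested, 14 were higher and 27 lower, 1 was called each way, and the smaller SE called 8 higher and 7 lower. Of all tested entries the smaller SE called 7.22% higher and 2.77% lower. Cyp3a44, a P450 that is predominant in female liver, rose from 34.8 in WTDR to 150 in KOAL (log2 2.11, SE 0.54), with 91.9 in WTAL and 23.0 in KODR. Its relatives Cyp3a41a and Cyp3a41b were both at 535 in KOAL and 185 in WTDR, and reads of these near-identical genes may be shared between them. Cyp2j9, of an arachidonate-oxidising subfamily, fell by 2.19 on the log2 scale (SE 0.57), from 17.6 in WTDR to 3.84 in KOAL, with 4.42 in WTAL and 4.31 in KODR, so that WTDR alone was high. Cyp2b10, a target of the xenobiotic receptor CAR, was 5.89 in KOAL and 22.8 in WTDR, called with the smaller SE. Of 36 conjugating enzyme genes none was called, the median was -0.21, and 6 were called with the smaller SE, all lower, with Gstm3 (11.8 and 30.7) farthest from 0 among those.

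In steroid and bile acid metabolism single enzymes stood out. Cyp8b1, the sterol 12-alpha-hydroxylase that sets the share of cholic acid (chr9:121914356-121916305), rose 4.45-fold (log2 2.16, SE 0.58), with 960 in KOAL, 216 in WTDR, 329 in WTAL and 184 in KODR. Cyp7a1, the rate-limiting enzyme of bile acid synthesis, was 21.7 in KOAL and 47.7 in WTDR and was not called (log2 -1.13, SE 0.87). Slco1a1, a bile acid and anion uptake carrier that is predominant in male liver, fell from 1.60 in WTDR to 0.243 in KOAL. It was also low in WTAL (0.157) and KODR (0.200), and it met the FPKM rule through WTDR alone. Of 19 bile acid genes tested 9 were higher and 10 lower, with a median of -0.06. Cyp17a1, the 17-alpha-hydroxylase of steroid synthesis, rose from 31.9 to 181 (log2 2.51, SE 0.68), and WTAL at 172 was close to KOAL. Of 19 tested female-predominant liver genes, Cyp17a1 and Cyp3a44 were called higher and the median was 0.04. Of 20 male-predominant genes, Slco1a1 was called lower and the median was -0.16. Sult2a7, a hydroxysteroid sulfotransferase, fell by 2.72 on the log2 scale (SE 0.60), with 3.81 in KOAL, 25.1 in WTDR, 53.3 in WTAL and 6.61 in KODR, so that both knockout groups lay below both wild type groups.

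In the insulin and IGF axis 1 gene was called. None of 21 tested insulin signalling genes was called, and their median of 0.17 was near that of all entries. The smaller SE called Irs1, Irs2 (16.8 in KOAL and 9.06 in WTDR) and Foxo1 (10.9 and 5.07), all higher. Of all tested entries it called 7.22% higher. Igfbp1, an IGF-binding protein that insulin represses through FOXO1 (chr11:7197782-7202546), rose 3.27-fold, with 270 in KOAL (173 to 368), 82.5 in WTDR (34.9 to 130), 34.9 in WTAL and 46.5 in KODR. The log2 difference was 1.71 (SE 0.49), and KOAL stood above all other groups. It was the only called gene of 14 in the growth hormone and IGF list. Igf1 itself was 462 in KOAL and 696 in WTDR (log2 -0.59, SE 0.83). Of 19 glucose metabolism genes none was called, 13 were higher, the median was 0.58, and the gluconeogenic genes Pck1 (2991 and 1270) and G6pc (191 and 108) were called with the smaller SE.

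Ribosomal, mitochondrial and amino acid genes gave no call. Of 60 tested ribosomal protein genes 20 were higher and 40 lower, with a median of -0.14 and no call. Of 50 nuclear genes of the respiratory chain and ATP synthase none was called, and their median was 0.05. None was called either of 27 genes of the urea cycle and amino acid breakdown (median 0.18), 14 sirtuin and NAD genes (-0.15) and 15 genes of methionine and one-carbon metabolism (0.33). The smaller SE called 3 methionine genes higher, among them Ahcy (1379 and 526), and 1 urea cycle or amino acid gene each way. It called 3 ribosomal protein genes higher and 1 lower, and 2 respiratory chain genes each way. Of all tested entries it called 7.22% higher and 2.77% lower. Of 8 mitochondrially encoded genes 3 were higher and 5 lower (median -0.25), with no call. The 8 include the ribosomal RNAs mt-Rnr1 and mt-Rnr2, which were 2 of the higher ones and are also given below. Cbs could not be tested since its estimate had failed in KOAL.

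The remaining called genes fell into no list. Camk2b, a subunit of calcium/calmodulin-dependent kinase II, rose from 1.25 to 8.71 (log2 2.80, SE 0.68), with 0.970 in WTAL and 6.21 in KODR. The Wnt co-receptor gene Lrp5 rose from 9.66 in WTDR to 34.7 in KOAL and the beta-catenin coactivator gene Bcl9l from 8.27 to 23.3. The angiotensin II receptor gene Agtr1a rose from 42.1 to 92.4 and As3mt, the arsenite methyltransferase, from 20.8 to 71.5. Histone H1.2 (Hist1h1c) rose from 63.1 to 220, with 214 in WTAL and 67.0 in KODR, so that its groups parted by diet. Histone genes such as Hist1h4i give transcripts that are mostly without a poly(A) tail, and Hist1h4i, at 4.70 and 1.51, was called on an SE of 0.014. The other higher genes, from 1.38-fold to 5.82-fold, were Gm20721, Paqr9, Sh3pxd2a, Tmem41a, Sbno2, Pllp, 2010003K11Rik, Pim3, Chrna2, Tnfaip8l1, Pcp4l1, Lrfn3, Cldn14, Crip2, Slc41a3 and Ly6d.

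Lower genes included a receptor and a repair enzyme. Ntrk2, the receptor for brain-derived neurotrophic factor, fell by 2.52 on the log2 scale (SE 0.63), with 0.587 in KOAL, 3.36 in WTDR, 6.19 in WTAL and 1.24 in KODR. Tdp2, which repairs topoisomerase II-linked DNA ends, fell from 9.80 to 2.84. Osgin1, an oxidative stress-induced growth inhibitor, fell from 148 in WTDR (113 to 183) to 54.3 in KOAL (35.4 to 73.2), with 176 in WTAL and 88.5 in KODR. Lum, a proteoglycan of fibroblasts, fell from 2.80 to 1.29 on narrow intervals (SE 0.13).

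Short structural RNAs had the largest called differences. Of 170 tested, 34 were called higher in KOAL and 6 lower, where protein-coding genes gave 43 and 11 of 9946. All 13 called small nuclear RNAs were higher in KOAL, up to 72.5-fold for Gm25313 (258 and 3.56), with 124 in WTAL and 81.0 in KODR. The 5.8S ribosomal RNA entry n-R5-8s1 was 175439 in KOAL, 12826 in WTDR, 303919 in WTAL and 190676 in KODR (log2 difference 3.77, SE 0.72). The U3 small nucleolar RNA gene Rnu3b3 was 813, 69.7, 749 and 599 in that order. In these 3 entries WTDR was low and the other groups were high. The mitochondrial ribosomal RNAs mt-Rnr1 (17053 in KOAL and 6147 in WTDR) and mt-Rnr2 (18780 and 5939) were called higher with the smaller SE. The RNA was poly(A)-selected, most of these RNAs carry no stable poly(A) tail, and several have near-identical copies, so their levels are uncertain. The part of the poly(A) selection in these differences was not tested. They also made up most of the entries listed at 0, 73 of 111 in KOAL and 125 of 152 in WTDR. Of the 15 pseudogenes called, 5 were higher and 10 lower, and their reads can come from their parent genes. Among the 15 single-gene entries that rose most while measured at 1 FPKM or more in KOAL and WTDR alike, Cdkn1a was the only protein-coding gene.

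The livers of KODR and WTAL mice gave the complementary comparison, which shares no library with the first. There 16 entries were higher in KODR (0.118%) and 21 lower (0.154%), out of 13605 tested. A gene that differs by genotype alone, and alike on both diets, has the same difference in both comparisons, and one that differs by diet alone, and alike in both genotypes, has opposite differences. A gene with both, each of them alike throughout, lies between these. Differences that change sign between diets or between genotypes can give the same values. Of the 43 protein-coding genes higher in KOAL, 42 could be compared, and 26 of these (61.9%) pointed the opposite way and 16 the same way, where 53.6% of all protein-coding genes pointed opposite ways. Of the 11 lower genes, 10 could be compared, 4 of which pointed the opposite way and 6 the same way. Sult2a7 and Ntrk2 were the called genes that were also called between KODR and WTAL, both lower in KODR, by 3.01 (SE 0.70) and 2.32 (SE 0.61) on the log2 scale.

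From both comparisons the mean genotype difference over both diets and the mean diet difference over both genotypes follow directly, and they are given as values with no test. For Cdkn1a the genotype difference was 0.61 and the diet difference -3.21 (SE 0.48 for each). For Thrsp they were -0.44 and 2.93 (SE 0.54), for Cyp3a44 0.06 and -2.05 (SE 0.41), and for Insig1 -0.21 and 1.30 (SE 0.30). In these genes the mean diet difference was the larger. Their genotype difference changed sign between diets, so that it partly cancelled in the mean. Cdkn1a was higher in KOAL than in WTAL (78.3 and 18.3) but lower in KODR than in WTDR (3.02 and 5.54). The mean genotype difference was the larger for Sult2a7, at -2.87 and -0.14 (SE 0.46), Ntrk2, at -2.42 and 0.10 (SE 0.44), and Camk2b, at 2.74 and -0.06 (SE 0.71). In these 3 genes the diet difference changed sign between genotypes. Sult2a7 was lower in WTDR than in WTAL (25.1 and 53.3) but higher in KODR than in KOAL (6.61 and 3.81). Zbtb16 (1.37 and -1.76, SE 0.44), Lcn2 (1.17 and -1.14, SE 0.43), Igfbp1 (1.06 and -0.65, SE 0.36) and Lpin1 (1.47 and -0.75, SE 0.41) had values of both, but these are means over groups that did not all follow them. Igfbp1 was highest in KOAL and lower in KODR than in WTDR, Zbtb16 and Lpin1 were low in WTDR alone, and Lcn2 was highest in KOAL. Over the 42 higher genes the median genotype difference was 0.67 and the median diet difference -1.14, and over the 10 lower genes they were -0.81 and 0.98. The signs of these medians follow from how the genes were called, since the KOAL and WTDR difference is the genotype value less the diet value, and over all protein-coding genes compared the medians were 0.11 and -0.02.

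**Figure D5:**
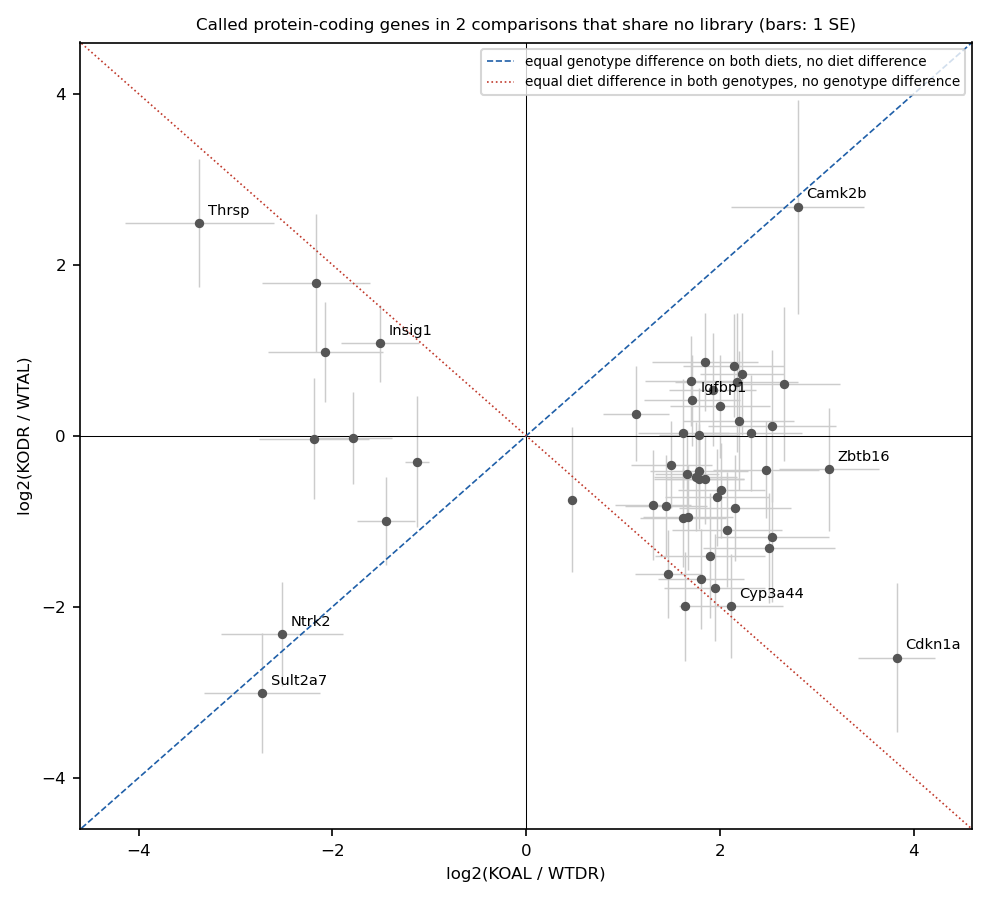
Log2 ratio of KODR to WTAL (vertical axis) against that of KOAL to WTDR (horizontal axis) for the called protein-coding genes tested in both, with bars of 1 SE. Genes on the dashed line have no mean diet difference (Sult2a7, Ntrk2 and Camk2b lie near it). Genes on the dotted line have no mean genotype difference (Insig1, Cyp3a44 and Thrsp lie nearer to it). Differences of opposite sign can cancel in either mean, and did so at least in part in these genes.

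Of all entries tested between KODR and WTAL, 57.4% were higher in KODR, and the median log2 difference was 0.12. By list, all 23 sterol synthesis genes were higher in KODR than in WTAL, with a median of 0.86. The median diet difference of the list was 1.00 and its median genotype difference -0.09. Of 23 innate sensing and interferon genes tested in both comparisons, 21 were lower in KODR (median -0.85), and of 11 Kupffer cell markers 10 were lower (median -0.71). For fatty acid oxidation 17 were higher and 11 lower, which is close to the share over all tested entries. In WTAL 59 of 60 ribosomal protein genes stood below their KODR values (median of KODR less WTAL 1.23), as did all 12 hepatocyte markers (median 0.68), which summed to 45637 in WTAL and 108381 in KODR. The part of this difference in the genotype and diet values, which use WTAL, was not tested, and it does not enter the comparison of KOAL with WTDR.

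The same groups were measured in other tissues. Of the 54 called liver genes, 43 were measurable in skeletal muscle by the same rule, and 31 of these had the liver's sign in the KOAL and WTDR values. The figure was 29 of 36 in brain and 36 of 47 in inguinal white adipose tissue (WAT), while the share of all tested entries that was higher in KOAL was 50.6% in muscle, 64.8% in brain and 57.4% in WAT. Cdkn1a was 54.1 in KOAL and 16.4 in WTDR muscle. Its brain values were 31.0 and 6.72, and those of WAT 26.1 and 11.2. Mt1 was 79.6 and 13.7 in muscle, 185 and 68.5 in WAT, and 297 and 128 in brain. These comparisons were not tested here. In muscle, Insig1 was 6.27 in KOAL and 5.52 in WTDR, and Thrsp was 66.2 and 59.7. S100a9 was 364 in KOAL and 13.9 in WTDR muscle but 2.83 and 4.83 in WAT. The labels do not say whether tissues with the same replicate number came from the same mouse.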

How the data were processed

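Poly(A)-selected liver RNA of female mice was sequenced on an Ion Proton instrument by the authors, who trimmed reads with cutadapt 1.5 and sickle, mapped them to GRCm38 with BBmap, and ran Cuffdiff 2.2.1 (versions of cutadapt and Cuffdiff per the submitters' processing notes) with normalisation by the geometric mean across samples and a dispersion per group. The deposited FPKM values and interval bounds are pooled per group by the authors, 1 value for each of 16 groups. Without counts or single-library values the depth is unknown, and only the intervals set the precision. Other groups of the table were read only where named.

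Each SD was taken as the distance from the FPKM to its upper bound, divided by 2. The SE of a log2 ratio came from both SDs by the delta method. A two-sided Wald test with a normal distribution was adjusted by the Benjamini-Hochberg method over all entries tested (both statuses valid, both FPKM above 0, an FPKM of at least 1 in one group), at an FDR of 10%. Fits ran under Python 3.11.15 (scipy 1.17.1, statsmodels 0.14.6, pandas 2.3.3, numpy 2.4.6; figures by matplotlib 3.10.9), and the test was tried on simulated data first. Of several entries with 1 symbol, a list used the one with the highest summed FPKM, and list members held only in joined entries were left out. Biotypes and positions are those of GENCODE vM21 (GRCm38), whose build is that of the table. Promoters are RefSeq sequences.

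The comparison, its lists of genes and its alternatives were chosen with earlier results of these data known, so no list is independent evidence. Genes named by rule were Irs1, members of the lists, and up to 15 single-gene entries per direction with the largest called log2 difference and 1 FPKM or more in KOAL and WTDR alike, filled with calls of the smaller SE where fewer were called. That called protein-coding genes were named beyond this rule, and the search for motifs in genes called only with the smaller SE, was decided after the values were seen. The alternatives were another FDR, SD, distribution, pseudocount, filter, fold, centring and set of entries. Some members of the lists and calls enter the counts but are not reported here by name.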

Additional observations from a re-analysis of the deposited data

How the results depend on the processing

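No paired analysis was possible because the table holds 1 value per group, and for the same reason no replicate was left out in turn. The 122 entries called between KOAL and WTDR became 1369 with the SD divided by the square root of the number of libraries, 11 with a t distribution, 405 with a pseudocount of 0.1 and 369 with a pseudocount of 1, which also admit entries listed at 0 in one group. Restricting the test to protein-coding entries, chosen after seeing the data, left 44 calls, as fewer entries were tested. Non-overlapping intervals, an FDR of 5%, the loss of the filter or a stricter one of 5 FPKM, a floor of 2-fold, centring, and leaving out joined entries, blood and muscle markers or (added after seeing the data, like the markers) entries with an SD under 10% of the FPKM gave between 83 and 178. The share of calls higher in KOAL was 75.4%, and 64.9% with a pseudocount of 0.1. The 37 calls between KODR and WTAL became 440 with the smaller SE, 227 with a pseudocount of 1, 5 for protein-coding entries only and 18 without entries of an SD under 10%. There the share higher in KODR was 43.2%, 62.3% with the smaller SE, 74.9% with a pseudocount of 1, 20.0% for protein-coding entries only and 33.3% without narrow intervals. All 54 protein-coding calls held with the smaller SE, as they had to, since it shrinks every SE alike. Of the 54, 53 held with a pseudocount of 1 (Myh4 was lost) and 44 among protein-coding entries only. At an FDR of 5% 43 held, and with the t distribution 2 (Gm20721 and Hist1h4i). Centring on the median kept 41 and lost 2010003K11Rik, Agtr1a, Bcl9l, Hspa1b, Igfbp1, Lrg1, Myh4, Paqr9, Pcp4l1, Pim3, Siglec1, Tmem41a and Tnfaip8l1. Without entries of an SD under 10%, 43 were kept, and Agtr1a, Gm20721, Hist1h4i, Hspa1b, Lum, Myh4, Paqr9, Pcp4l1, Pllp, Sh3pxd2a and Siglec1 were not called. After centring, the medians of the female-predominant (-0.08), respiratory chain (-0.07), hepatocyte (-0.08) and cholangiocyte (-0.09) lists turned negative, and with an FPKM of at least 5 that of the bile acid list turned positive (0.03) and the cholangiocyte one negative (-0.05). The unknown depth and the wide intervals limit what can be called.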
